A study of Homo sapiens with 2 samples.

Results

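The transcripts of the RBMS family were examined for binding by one of its own members. RBMS1, RBMS2 and RBMS3 encode proteins with a pair of RNA recognition motifs (RRMs) that bind single-stranded nucleic acid. RBMS1 was first described as a protein that binds single-stranded DNA near the MYC gene, and RBMS1 and RBMS3 are known to bind A- and U-rich sequence in the 3′UTRs of mRNAs. An RNA-binding protein that contacts the mRNA of its own gene is said to autobind, and many such proteins control their own level or that of their relatives in this way. The question here was where, and with how many sequenced fragments, RBMS3 was found on these 3 transcripts.

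The cells were MDA-MB-231, a human triple-negative breast cancer line, stably transduced with a lentiviral vector for RBMS3 with an N-terminal FLAG tag. There was 1 group with 2 biological replicates, and the source and cell line labels of replicate 2 give another number for the line than its title, which was followed. RNA was crosslinked to protein with ultraviolet light at 400 mJ/cm2, recovered with an antibody against FLAG, tailed with poly(A) and reverse transcribed from oligo(dT) (CLIP-seq). Each listed site is a deletion, read by the method as a base skipped where protein had been crosslinked, with k, the number of unique tags (sequenced RNA fragments) over it, and m, the number of those with the deletion. The 2 replicates were pooled in the list and no control library was analysed here, so no value has an error between replicates. Intervals below are 95% Wilson intervals and cover counting error only.

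The members are the listed sites on the same strand as, and within the GENCODE release 44 span of, RBMS1, RBMS2 or RBMS3. They numbered 12 of 27706 sites (0.0433% of the list), and they formed 8 of 16060 clusters, that is, groups of sites within 50 nt of each other. RBMS1 (chromosome 2, 160272151 to 160493807, minus strand, hg38) held 5 sites in 1 cluster. RBMS2 (chromosome 12, 56521820 to 56596193, plus strand) held 1 site. RBMS3 (chromosome 3, 28574791 to 30010391, plus strand) held 6 sites, each a cluster of its own. At least 1 site was thus present in each of the 3 genes, and a site was present in 37.6% of all 20046 protein-coding genes. In an annotated 3′UTR the share over 19595 genes was 32.5%, and each of the 3 genes again had at least 1 site there. Both shares cover all annotated genes, whether or not their RNA was present in these cells.

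The sequences that the results turn on are shown 5′ to 3′ on the transcript strand, from hg38, with the deleted base in capitals. In the lines for RBMS2 and for the 3′UTR of RBMS3 the capitals also mark a motif: AATAAA, the poly(A) signal that directs cleavage of mRNA ends, and matches of the AUA motif, an A- and T-rich pattern of 7 nt around ATA, respectively. In the RBMS3 3′UTR line the deleted base is in lower case, the third from the right.
RBMS1 site 4, the most deletions in the family (chr2:160274492-160274512, minus): aaaagattttTatcaaatgtt
RBMS1 site 1, the farthest upstream of the cluster (chr2:160274567-160274587, minus): cccttaaattCatctagtagc
RBMS2 site, a long T run before a poly(A) signal (chr12:56595567-56595596, plus): acTtttttttttttaAATAAAacacaaaag
RBMS3 site 5, the coding site (chr3:29897455-29897475, plus): tcccctgtctCcacataccag
RBMS3 site 3, the 5′UTR site (chr3:29281608-29281628, plus): taagaggaagCtcggcctggg
RBMS3 site 6, the 3′UTR site of the canonical transcript (chr3:30009877-30009906, plus): tctcttcATATATAAAaaaataagttattc

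The 3 genes differed in depth and in deletion percentage. The 5 sites of RBMS1 and the site of RBMS2 had 1516 to 4895 tags, with the deletion in 1.74 to 10.9% of them. The 6 sites of RBMS3 had 7 to 47 tags, with the deletion in 70 to 100%. No interval of an RBMS3 site overlapped one of the other 2 genes. The lowest lower bound in RBMS3 was 54.6%, and the highest upper bound elsewhere was 12.3%. This split followed depth over the whole list. All 7615 sites with at most 47 tags had deletions in 30% or more of their tags, and the fewest tags at a site under 30% were 110. No site as shallow as those of RBMS3 was thus listed at a low percentage, and the difference in percentage between the genes cannot be told apart from their difference in depth. No listed site had fewer than 7 deletions. At the RBMS3 sites of 7 to 11 tags a low percentage could therefore not be listed, and their separate intervals carry no further information. By deletions, 28.8 to 94.8% of the list had fewer than the RBMS1 sites, 91.9% had fewer than the RBMS2 site, and 0 to 28.8% had fewer than the RBMS3 sites. RBMS3 site 4, with 7 deletions in 7 tags, was at the minimum of the list for both counts. Every tag carried the deletion at 3 RBMS3 sites, and at 4893 sites of the whole list. Whether such deletions came from crosslinked protein was not tested.

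**Figure D1:**
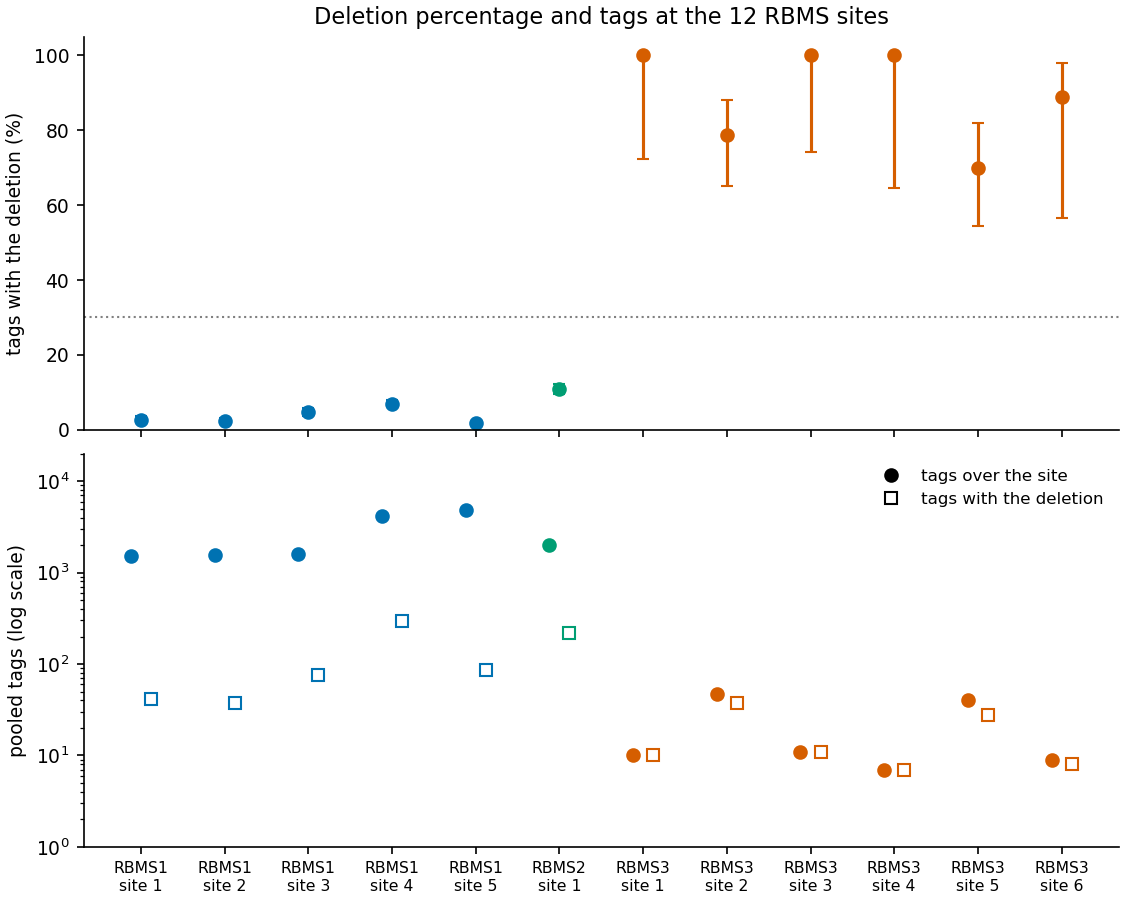
Percentage of tags with the deletion (upper panel, error bars are 95% Wilson intervals, dotted line at 30%) and number of pooled tags (lower panel, log scale; filled circles are all tags over the site, open squares are tags with the deletion) at the 12 sites. RBMS1 sites are blue, RBMS2 green and RBMS3 orange; RBMS1 and RBMS2 sites have 1516 to 4895 tags and RBMS3 sites 7 to 47.

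**Figure D2:**
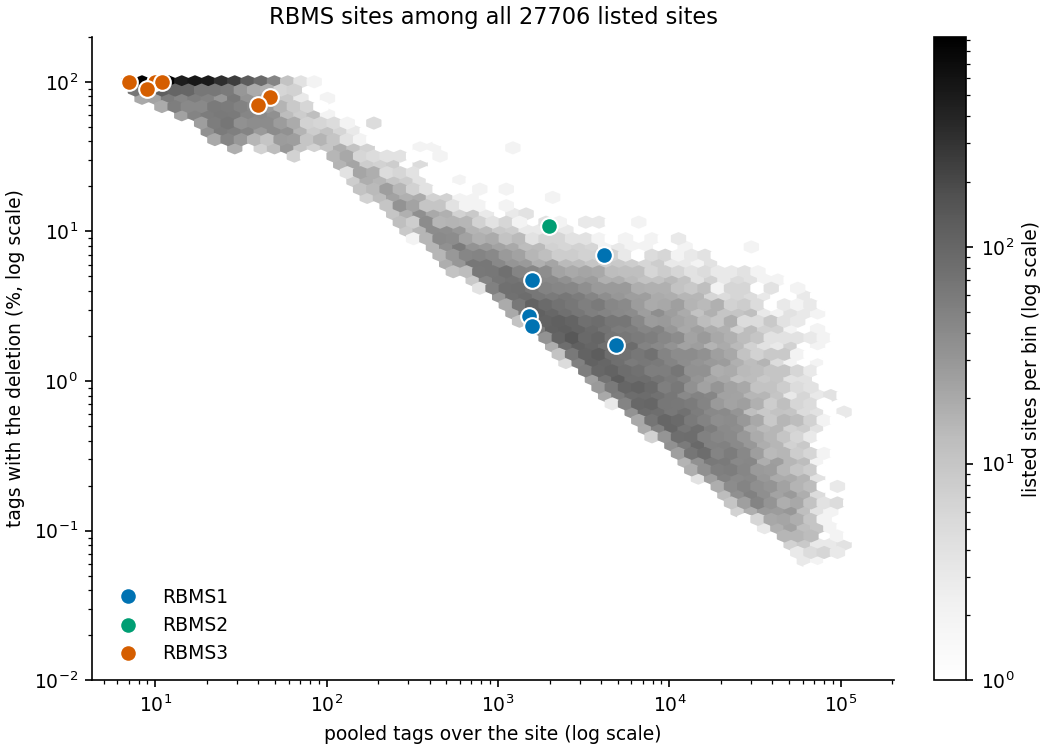
Every listed site by the number of pooled tags over it (horizontal axis, log scale) and the percentage of them with the deletion (vertical axis, log scale), with grey shade for the number of sites per bin. The RBMS3 sites lie in the arm of few tags and high percentages, and the RBMS1 and RBMS2 sites in the arm of many tags and low percentages.

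RBMS1 was the most heavily covered member. Its 5 sites lay within 81 nt of each other in the last exon (160272151 to 160274764), which is 3′UTR over its whole length in the canonical transcript. They are numbered here from 5′ to 3′. Site 1 (position 160274577) had 41 deletions in 1516 tags (2.70%, interval 2.00 to 3.65%). Site 2 (160274548) had 37 in 1579 (2.34%, 1.70 to 3.21%). Site 3 (160274527) had 75 in 1583 (4.74%, 3.80 to 5.90%). Sites 1 to 3 thus had nearly equal tags, and the percentage at site 3 lay above the intervals of sites 1 and 2. Site 4 (160274502) had 292 deletions in 4165 tags (7.01%, 6.27 to 7.83%), and site 5 (160274496) had 85 in 4895 (1.74%, 1.41 to 2.14%). The interval of site 4 overlapped none of the other 4, although site 5 is listed only 6 nt away. Site 4 held 55.1% of the 530 deletions of the gene. Neighbouring sites share tags, so these 5 values are not independent.

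The tags over RBMS1 rose along the transcript. From site 3 to site 5, over 31 nt, they increased 3.09-fold, whereas from site 1 to site 3, over 50 nt, the ratio was 1.04. Between sites 3 and 4 the annotation places the end of a protein-coding transcript at 160274520 and that of a transcript with a retained intron at 160274518. The next protein-coding end, shared by 2 such transcripts, is at 160274460, 36 nt after site 5. The end of the canonical transcript is a further 2309 nt downstream.

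All 5 RBMS1 sites lay within 100 nt of an annotated transcript end, at distances of 37, 8, 7, 22 and 16 nt from site 1 to site 5. To the nearest end of a protein-coding transcript the distances were 57, 28, 7, 42 and 36 nt. Of all 21222 3′UTR sites in the list, 69.3% lay within 100 nt of an end. The ends concerned were the proximal ones. Of the 14 annotated RBMS1 transcripts, 7 end within 100 nt downstream of a site, 3 of them protein-coding, and the canonical end had no listed site within 100 nt. The 2345 nt of 3′UTR between site 5 and the canonical end held no site.

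The 2 kinds of end differed in sequence. The canonical end is preceded by AATAAA, which starts 23 nt before it, and the 20 nt of genome after it hold 2 A. At the 5 proximal ends no AATAAA or ATTAAA, the most common variant of the signal, was present in the 50 nt before the end. The 20 nt of genome after these ends held 10, 18, 11, 11 and 19 A, in order of increasing coordinate from 160274460 to 160274540. A less common variant of the signal, AGTAAA, lay shortly before the ends at 160274518 and 160274520, as given below for the sites. At the sites themselves, the 20 nt after the deletion held 3, 14, 16, 9 and 10 A from site 1 to site 5, against a median of 7 over all 3′UTR sites. A count of at least 12 A was present at 2 of the 5 and at 7.35% of 3′UTR sites. RNA with a stretch of A can be captured and primed by oligo(dT) without an added tail, and the part of this in the RBMS1 sites was not tested.

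**Figure D3:**
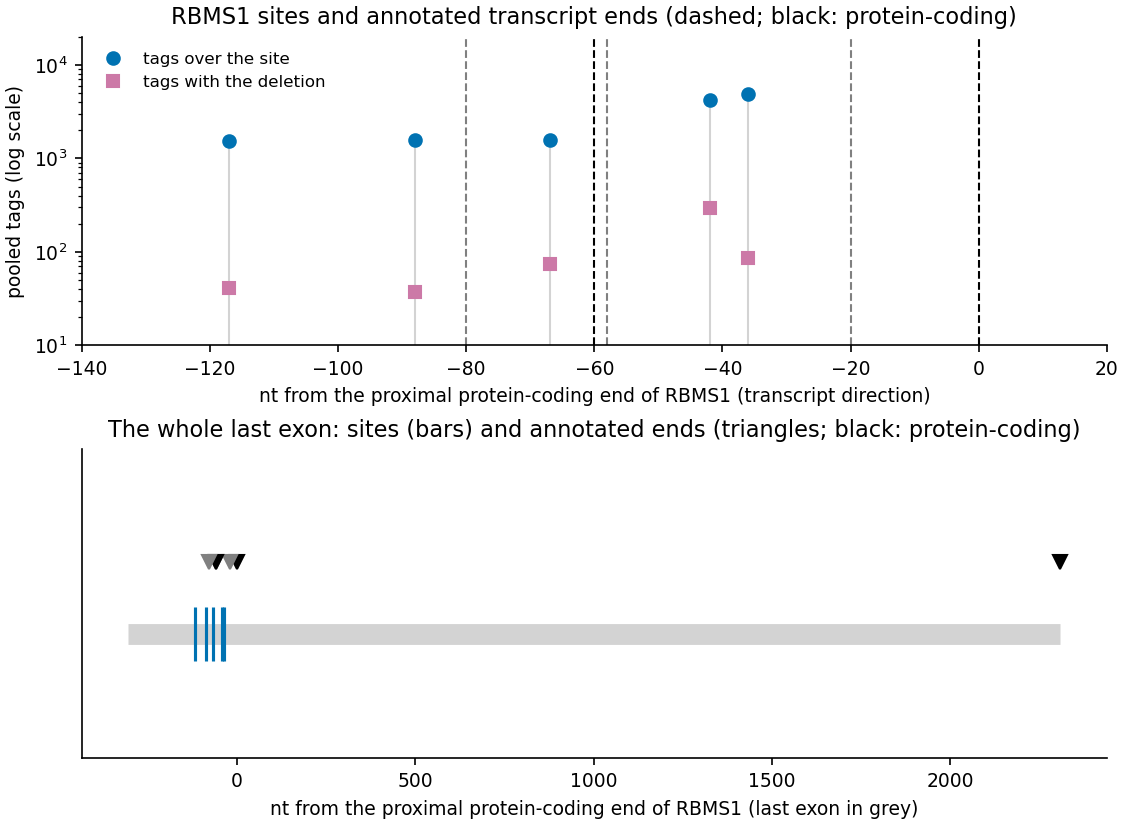
Upper panel: pooled tags (circles) and tags with the deletion (squares, log scale) at the 5 RBMS1 sites, by distance in nt from the proximal protein-coding end, with annotated transcript ends as dashed lines (black where a protein-coding transcript ends there). Lower panel: the whole last exon to scale, with all 5 sites (bars) beside the proximal ends (triangles) and none near the canonical end at 2309 nt.

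No RBMS1 site had a match of the AUA motif, or AATAAA, in its window, the deletion with 25 nt on each side on the transcript strand. Over all 3′UTR sites the shares were 51.7% and 52.7%. The letters AGTAAA, a less common signal, were looked for after the sequence had been read. They started 6 nt after the deletion of site 2 and 15 nt before that of site 3, and both distances give the same occurrence. Site 3 lies 7 nt before the protein-coding end at 160274520 and 9 nt before the end at 160274518, so AGTAAA precedes both ends. CATAAA started 17 nt before the deletion of site 1. AGTAAA and CATAAA were in 3.64% and 3.01% of the windows of 3′UTR sites. The deleted bases of sites 1 to 5 were C, T, A, T and A. Site 4 lay in a run of 5 T, site 3 in a run of 13 A, site 2 in a run of 3 T and site 5 in a run of 3 A. Within a run of equal bases the position of a deletion cannot be fixed. The 21-nt interval of site 3 occurs at 1522 places on the main chromosomes, but its 51-nt window and those of the other 11 sites each occur once.

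The place of RBMS1 among genes differed with the measure. Among 6371 protein-coding genes with a 3′UTR site, 1067 had more than 5 such sites and 376 had 5, RBMS1 included. In summed deletions over the 3′UTR, 1196 genes exceeded its 530. By its highest tag count, 4895, it was exceeded by 2471 genes, and all 5 sites were below the median of 4927 tags of 3′UTR sites. With its sites in 1 cluster, the median over these genes, it was exceeded by 2296 genes in clusters. It had 1.91 sites per kb of its 2621 nt of merged 3′UTR, against 0.420 per kb over all protein-coding genes. The first value counts 5 neighbouring sites of 1 cluster, and the second includes the 3′UTRs of genes without a site. Tag counts were not normalized to the abundance of each RNA, so more binding and more RNA cannot be told apart here or below.

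RBMS2 had a single site, deep in its long 3′UTR. The last exon of the canonical transcript runs for 7054 nt (56589140 to 56596193), and the site at 56595569 was 624 nt before its end and in no other of the 8 transcripts. Of 1986 tags, 216 carried the deletion (10.9%, interval 9.58 to 12.3%), the highest percentage among the 6 sites of RBMS1 and RBMS2. That interval overlapped none of those of the RBMS1 sites. No listed site lay in the last 100 nt of the transcript. RBMS2 had 0.124 sites per kb over 8095 nt of 3′UTR, less than the 0.420 of all genes.

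The RBMS2 deletion fell in a run of 12 T, and the list places it at the first of them. AATAAA follows 13 nt after that base (56595582 to 56595587), and the AUA match in the window, AAATAAA, contains it. Runs of at least 12 T were rare among deletions, at 29 of 27706 sites (0.105%). Those 29 sites, with RBMS2 among them, had a median of 11.96% of tags with the deletion, near the value of RBMS2. The 40 sites in runs of at least 12 A, with RBMS1 site 3 among them, had a median of 4.08%, near its 4.74%. The median over all sites was 2.95%. Depth differed too, with median tags of 708 in the T runs, 2418.5 in the A runs and 2883.5 over all sites. How far the run length or the depth contributes to these percentages was not tested.

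RBMS3 is the gene of the protein that was precipitated, and its transcript can come from the native gene and from the transgene. Its 6 sites had 124 tags and 101 deletions in all, fewer of either than the strongest site of RBMS1 alone. They were spread over the 1435601 nt of the span, 98.7% of which is intron. By the order 3′UTR, 5′UTR, coding sequence, other exon and intron over all transcripts, 2 sites were in 3′UTRs, 1 in a 5′UTR and 3 in introns.

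One site, numbered 5 from the 5′ side, lay in coding sequence. At 29897465, 28 of 40 tags carried a deleted C (70.0%, interval 54.6 to 81.9%). The base is coding in 7 of the 8 protein-coding transcripts, in codon 293 of 438 (stop included) of the canonical transcript. It was counted under 3′UTRs because 1 transcript, annotated for nonsense-mediated decay, has it after its stop codon. In the canonical transcript it lies in exon 9 of 15 (29897379 to 29897475), 10 nt before the last base of the exon, so the listed 21-nt interval ends exactly where the exon ends.

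This was the only one of the 12 sites in coding sequence of any annotated transcript of its gene. The vector carries the RBMS3 coding sequence, so tags at site 5 can derive from the transgene or from native RBMS3 mRNA, and the 2 sources cannot be told apart. Which isoform it carries, and whether it includes UTR sequence, is not given in the sources used here, so the same holds for the RBMS3 UTR sites. At 40 tags the site was deeper than the 22 tags of the median site placed in coding sequence (672 sites). Of those sites, 67.6% had deletions in 30% or more of the tags, as site 5 did. The 672 leave out 271 sites that, such as site 5, are coding in the canonical transcript but counted under 3′UTRs. The interval of site 5 matched no RBMS1 or RBMS2 transcript with fewer than 5 mismatches, so the relatives do not share this 21-nt sequence. The list gives tags at listed sites only, and the depth over the rest of the coding sequence was not analysed here.

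The annotated 3′UTR of the canonical RBMS3 transcript held 1 site, with few tags. At 30009904, 8 of the 9 tags had lost a T (88.9%, interval 56.5 to 98.0%), 482 nt before the canonical end, in a 3′UTR of 6524 nt. It was one of 2 sites in the family with the AUA motif and the only one with a match that does not contain AATAAA. The 2 overlapping matches start within 20 nt upstream of the deletion, the nearer of them 18 nt before it. By comparison, RBMS1 site 5 had 4895 tags. The canonical end of RBMS3 has AATAAA starting 11 nt before it, and neither that end nor any other annotated end of the gene had a listed site in the 100 nt upstream.

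The 5′UTR site at 29281618 had a deleted C in all 11 tags (100%, interval 74.1 to 100%). It was 547 nt after the start of the canonical transcript and 64 nt before the start codon, in the 5′UTR of 7 transcripts. RBMS3-AS3, an antisense RNA, overlaps it on the other strand. Sites in 5′UTRs were few in the list, at 99, and had a median of 13 tags, and 90.9% of them had deletions in at least 30% of the tags.

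The 3 intronic RBMS3 sites had 10, 47 and 7 tags. Site 1 (28581990) had a deleted G in all 10 tags and site 4 (29674452) a deleted G in all 7, with lower bounds of 72.2% and 64.6%. Site 2 (28594005) had a deleted T in 37 of 47 tags (78.7%, interval 65.1 to 88.0%), and that T is within an ATTAAA. Sites 1 and 2 are upstream of the canonical start and in introns of transcripts that begin farther 5′. All 3, and the 5′UTR site, also lie in the span of ENSG00000283563 (28349178 to 29767537), another gene model on the same strand, so their assignment to RBMS3 is uncertain. Introns of RBMS3 held 2.12 sites per Mb, against 3.10 over all protein-coding genes, and introns of RBMS1 and RBMS2 held none over 209894 and 65463 nt.

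**Figure D4:**
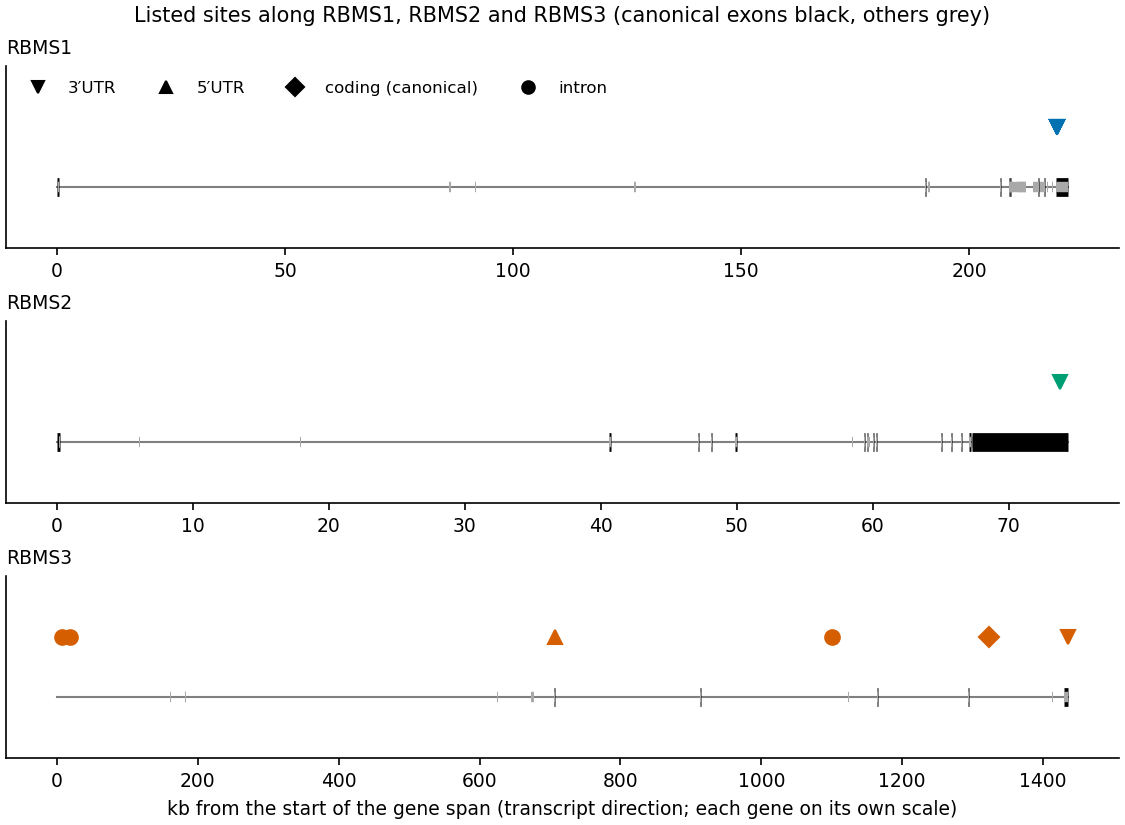
Positions of the 12 sites along the 3 gene spans, in kb from the 5′ end of each span, each gene on its own scale, with canonical exons in black and other exons in grey. Symbols give the feature, and the diamond is the RBMS3 site that is coding in the canonical transcript. RBMS1 and RBMS2 sites are all in the last exon and RBMS3 sites are scattered along the span.

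Across the family, T was deleted at 5 of 12 sites, C at 3, A at 2 and G at 2. Over the whole list the shares were 63.2% for T, 7.8% for C, 21% for A and 8.02% for G. Windows with the AUA motif numbered 2 of 12 and those with AATAAA 1 of 12, against 46.8% and 46.4% of all sites. In the list, the AUA share was 29.8% at intronic sites and 6.25% at the sites placed in coding sequence. Of the 6 RBMS3 sites, 4 are intronic or coding, although the coding one was placed under 3′UTRs. With so few sites, 5 of which share tags, these counts are a description.

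To place the family among other proteins with RRMs, 18 genes for relatives and other RRM proteins were listed. Of these, 14 (77.8%) had a 3′UTR site, compared with 32.5% of all protein-coding genes, and 10 had a site within 100 nt of an end. The 32.5% covers all annotated genes, whether or not their RNA was present in these cells. RNA levels were not analysed here, so the 2 shares cannot be compared as shares of expressed genes. SYNCRIP, an hnRNP-like protein, had the most 3′UTR clusters, 6 with 10 sites. PABPC1, the cytoplasmic poly(A)-binding protein, had the most sites, 16 in 3 clusters, and 2876 deletions. More 3′UTR deletions than the 530 of RBMS1 were present in 2 of the 18, which were PABPC1 and SYNCRIP with 578, and RBM3, a cold-inducible protein, had 528. CIRBP, RBM4, MSI1 and CELF1 had no 3′UTR site. By clusters, RBMS1 with 1 was below the median of the list, which was 2, and 10 of the 18 genes had more. A 3′UTR site with more tags than any of RBMS1 was present in 8 of the 18. RBMS1 was thus near the upper end of this list in sites and deletions but not in clusters or depth. RBMS2 and RBMS3 had 216 and 36 3′UTR deletions, and 28 of the 36 were at the RBMS3 site that is coding in its canonical transcript. No test was made, since the list is a single pooled measurement.

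**Figure D5:**
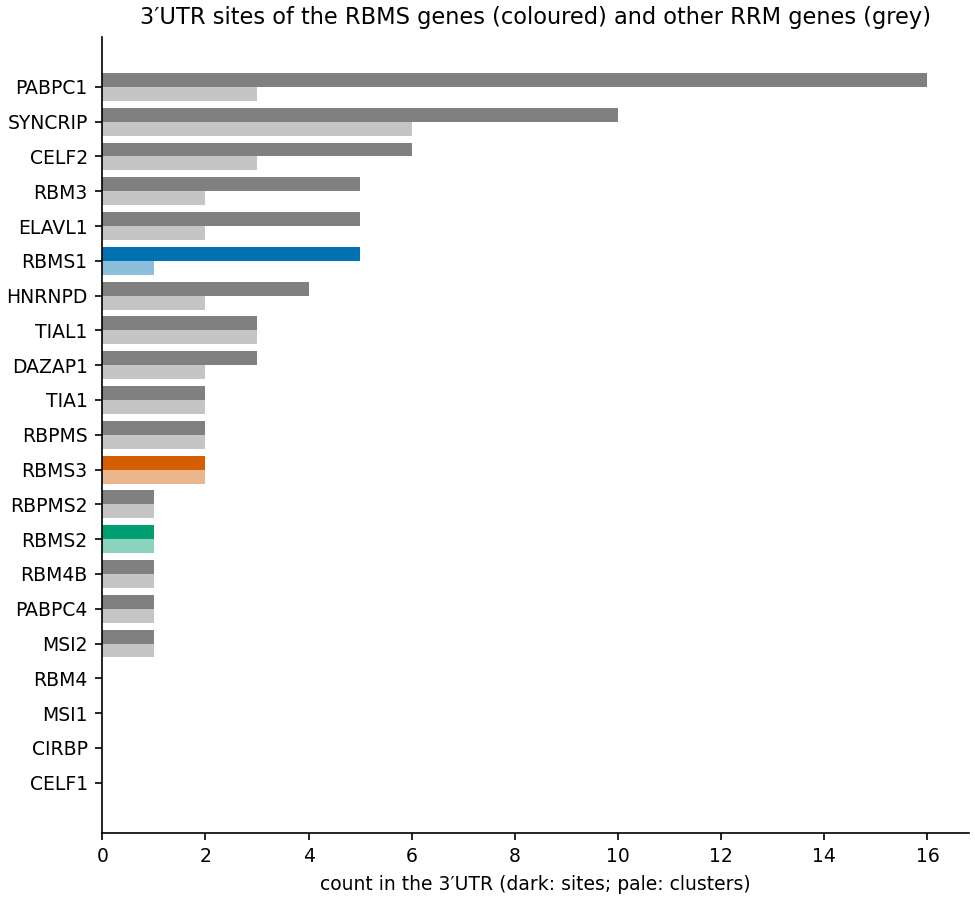
Number of 3′UTR sites (dark bars) and 3′UTR clusters (pale bars) in RBMS1 (blue), RBMS2 (green), RBMS3 (orange) and 18 other genes for RRM proteins (grey). RBMS1 has 5 sites in 1 cluster, whereas SYNCRIP has 10 in 6; the RBMS3 count of 2 includes the site that is coding in its canonical transcript.

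Genes that mark mesenchymal triple-negative cells were also compared with luminal or epithelial markers. VIM, CD44, AXL, CAV1 and SPARC, 5 of 5, had a 3′UTR site. The sites with the most deletions had 37452 to 91392 tags in the first 4, whereas the single site of SPARC had 51 deletions in 52 tags. Of the luminal or epithelial markers, ESR1, PGR, FOXA1 and CDH1 had no site in their spans, and GATA3 had 1, with 47 of 744 tags. Over all protein-coding genes, 37.6% had a site in the span and 32.5% had one in an annotated 3′UTR. A listed site depends on binding as well as on RNA, so the lack of one does not show that the RNA was absent.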

How the data were processed

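Per the study's methods, the authors appended molecular identifiers to the reads and used the CLIP Tool Kit (version not given in the sources used here) to align them to hg38, reduce them to unique tags, pool both replicates and call sites from deletions at a false discovery rate under 10% and a fold over 10 (the sources do not say over what). The list as deposited gives counts of tags and of tags with the deletion per site, not normalized. Library totals were not analysed here, so depth is given per site. The deletion was taken as the centre of each 21-nt interval.

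Sites were placed on GENCODE release 44 with Python 3.11.15, numpy 2.4.6, scipy 1.17.1, pysam 0.24.0 and samtools 1.23.1, and plotted with matplotlib 3.10.9. Stop codons counted as coding. A 3′ end was the end of any annotated transcript of the gene, unless stated. Placement and intervals were tested on simulated data. The members, the gene lists and the alternatives were chosen with earlier results of these data known. The text names all sites of RBMS1, RBMS2 and RBMS3, and, of the RRM list, genes with the most 3′UTR clusters and those with none. PABPC1 and RBM3 were named after their values were seen. Alternatives were limits on deletions or percentage, overlap, strand, annotation, cluster distance and motif window. No statistical test was run.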

Additional observations from a re-analysis of the deposited data

How the results depend on the processing

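The main counts were 5, 1 and 6 sites in RBMS1, RBMS2 and RBMS3, of which 5, 1 and 2 were in 3′UTRs. With at least 20 deletions per site, RBMS3 kept 2 sites in 2 clusters, an intronic site and the coding site that is counted under 3′UTRs. The site in the canonical 3′UTR of RBMS3, with 8 deletions, was thus lost. With at least 50 deletions, RBMS3 had 0 sites and 0 in 3′UTRs, while RBMS1 had 3 sites, all in the 3′UTR. With deletions in at least 10% of tags, RBMS1 had 0 sites, and with deletions in under 30%, RBMS3 had 0, in 3′UTRs as elsewhere. On the opposite strand there were 0 sites, and 0 in 3′UTRs, for RBMS1 and RBMS3. With 1 representative transcript, or without transcripts of nonsense-mediated decay (chosen after the data were seen), RBMS3 had 1 3′UTR site, because its coding site was no longer counted there. Clusters within 10 nt divided RBMS1 into 4. Sites with the AUA motif fell from 2 to 0 with 10 nt on each side and to 1 without matches that contain AATAAA. The 5 3′UTR sites within 100 nt of an end became 0 with the ends of representative transcripts alone, since all 5 lie at proximal ends of RBMS1, and 1 with 1 site per cluster. They remained 5 with the ends of protein-coding transcripts, an alternative chosen after the data were seen. The counts for RBMS2 (1 site in each alternative, although on the opposite strand it is a site of another gene) and for other RRM genes with a 3′UTR site (14, and 12 and 10 under stricter limits) stayed within 1.5 times.

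No paired analysis was possible because the values of the 2 replicates of the single group were summed before deposit. Neither replicate was left out, for the same reason. Depth limits RBMS3 most, where 4 of 6 sites had 7 to 11 tags.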

Other observations

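One site lay on the strand opposite to an RBMS gene within its span. It was in the 3′UTR of BAZ2A, a chromatin remodelling gene whose annotated end overlaps that of RBMS2, at 56595946 on chromosome 12 (minus strand), 377 nt from the RBMS2 site. Of 1364 tags, 367 carried the deletion (26.9%, 95% Wilson interval 24.6 to 29.3%). The pseudogenes RBMS1P1 and RBMS2P1 held 0 sites on either strand, and so did the antisense genes RBMS3-AS1 and RBMS3-AS2. RBMS3-AS3 held 0 sites on its own strand, and the 1 site on the other strand was the 5′UTR site of RBMS3.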
